A study of Sus scrofa with 8 samples.

Results

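miR-25-3p and the small RNAs that share its seed were followed through 8 small RNA libraries of porcine milk exosomes, the vesicles precipitated from milk after fat and cells had been removed. An insert, the part of a read before the 3′ adaptor, counted as a member if it was 18 to 26 nt long and its nucleotides 2 to 8 equalled those of miR-25-3p in the study's primer table, and members with the same first 18 nt formed a group. The rule found 2130 distinct inserts of 1609954 in all, in 681 of 1121313 groups, and they held 1100932 of 31322051 insert counts (3.51%). Most of these counts came from a single library, since 978430 of them were in 0d-3.

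The milk was taken from 3 healthy, untreated Yorkshire sows after the second birth, and no genetic change or agent was part of the design. Colostrum comprised 0d-1, 0d-2 and 0d-3 (0 days after birth, a library for each sow) and the library of 3 days, and mature milk comprised the libraries of 7, 14, 21 and 28 days. From 3 days on, RNA of the sows was pooled in equal amounts, so that only 0 days had replicates and the libraries share animals. The exosomes came from a precipitation reagent, which does not take vesicles alone, and no protein marker of exosomes can be read from these data.

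A miRNA is loaded into an Argonaute protein and finds its target mRNAs mainly through the seed, so that miRNAs with the same seed are expected to share many targets. miR-25 belongs to a family with miR-92a, miR-92b, miR-363 and miR-32. miR-25 lies in an intron of MCM7 beside miR-106b and miR-93 in mammals, and miR-92a is part of the miR-17-92 cluster, known for driving cell growth.

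The main sequences of the family in milk are shown to let the differences outside the seed be seen. They are given 5′ to 3′ as DNA, with T for U, and the seed is in capitals.

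miR-25-3p: cATTGCACttgtctcggtctga
first relative: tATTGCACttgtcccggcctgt
second relative: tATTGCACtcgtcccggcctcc
distant relative: aATTGCACggtatccatctgt

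The sequence of miR-25-3p is from the primer table and the others are the most frequent inserts of their groups. From general knowledge of mammalian miRNAs, the first relative is the sequence of miR-92a-3p, the second that of miR-92b-3p and the distant one that of miR-363-3p lacking its last base. No catalogue of pig miRNAs was matched here. Counted from the 5′ end, the first relative differs from miR-25-3p by C1T, T14C, T18C and A22T. The second relative differs from the first by T10C, G21C and T22C, so that 19 of 22 nucleotides are identical. In the RefSeq annotation of Sscrofa11.1, MIR92A-1 has MIR17, MIR18A, MIR19A, MIR20A and MIR19B-1 as miRNA neighbours. MIR92A-2 stands beside MIR363-1, MIR19B-2, MIR20B-1, MIR18B and MIR106A, and MIR32 lies within TMEM245.

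The libraries differed in make-up, which bears on every share below. They held from 14590531 to 28141425 reads, and inserts of 18 to 26 nt numbered 13896127 in 0d-3 but only 803940 (7 days) to 4391269 (0d-2) in the other 7 libraries. A leader, meaning any of the 4 most frequent 5-nt inserts, stood at the start of 42.5 to 73.6% of the inserts of these 7 libraries against 0.105% in 0d-3. The origin of the leaders was not tested. 0d-3 also nearly lacked miR-148a-3p, known as the leading miRNA of mammalian milk, with 3148 counts or 0.0227% of its inserts without a leader. In the other 7 libraries miR-148a-3p made up 14.4 to 21.2% of such inserts. 0d-3 thus stood apart from its label's other libraries in the main milk miRNA. Several shares are given below with and without 0d-3, whereas means over 8 libraries include it. Read length also varied, with 36 nt at 7 and 21 days and 40 nt in the remaining 6 libraries, although the methods give 36 nt for all.

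Members with the seed made up 0.674% of the inserts in 0d-1, 0.706% in 0d-2, 7.04% in 0d-3 and 0.429% at 3 days. The mature milk libraries of 7, 14, 21 and 28 days had 0.845, 0.613, 1.18 and 0.711%. 0d-3 was far above every other library, and without it the colostrum and mature milk libraries overlapped. Colostrum held 2.21% ± 3.22 (SD, n = 4) and mature milk 0.836% ± 0.246 (SD, n = 4), which did not differ in the exact permutation test over 70 assignments (two-sided p = 0.914, Benjamini-Hochberg adjusted over 9 tests 0.971). The smallest p this design allows is 0.0286. Without 0d-3 the colostrum mean was 0.603%, below that of mature milk. Whether more of a miRNA stems from more vesicles that carry it or from more copies in each cannot be told apart in such libraries.

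Much of the spread between the 7 libraries went with the leaders. Among inserts without a leader, the seed share was 2.19, 2.27, 7.05 and 1.62% in 0d-1, 0d-2, 0d-3 and 3 days, and 1.89, 1.92, 2.05 and 1.85% at 7, 14, 21 and 28 days. Outside 0d-3 the share thus stayed between 1.62 and 2.27%, and both ends of that range were colostrum. Colostrum without 0d-3 held 2.03% ± 0.353 (SD, n = 3) and mature milk 1.93% ± 0.0860 (SD, n = 4), with an exact permutation p of 0.629.

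**Figure D1:**
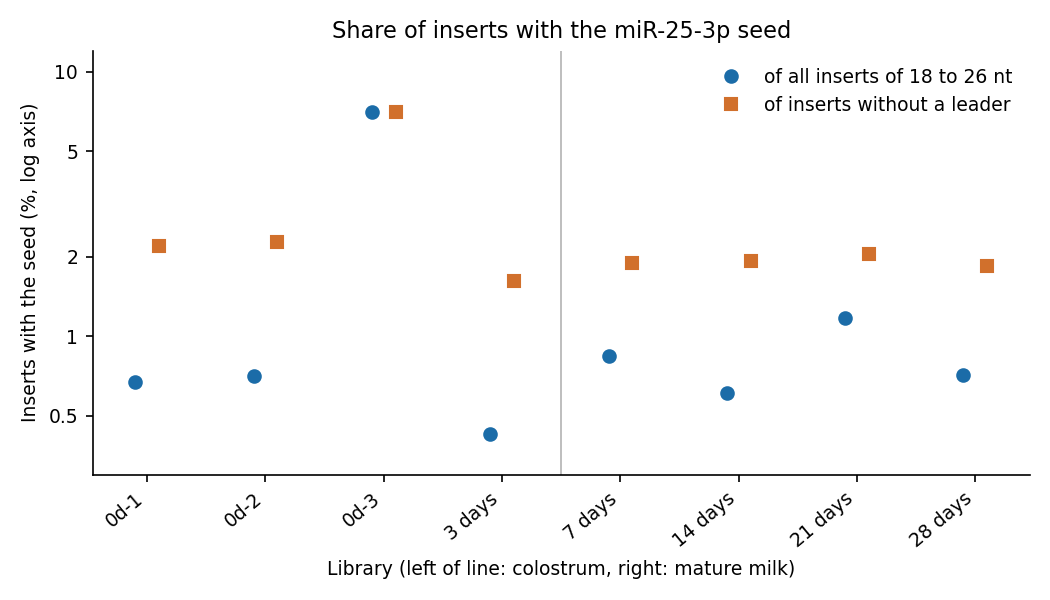
Share of inserts with the miR-25-3p seed (%, log axis) in each library, among all inserts of 18 to 26 nt (circles) and among those without a leader (squares). With leader inserts left out, 7 libraries lie between 1.62 and 2.27% and 0d-3 lies at 7.05%.

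Among inserts matched from their first base, miR-25-3p was the largest member in 7 of 8 libraries, and counting the inserts behind a leader as well changed this order, as described below. It held 10597, 15656, 546058 and 3357 counts in 0d-1, 0d-2, 0d-3 and 3 days, and 3384, 7271, 7462 and 13495 counts at 7, 14, 21 and 28 days. Among inserts without a leader these were 1.06, 1.15, 3.93 and 0.770% in colostrum and 0.942, 0.944, 1.01 and 0.963% in mature milk. Among the 18-nt groups without a leader, it ranked 4 in 0d-3, 5 in both 0d-1 and 0d-2, and between 7 and 11 in the other libraries. The first relative followed with 1.02, 1.04, 2.75 and 0.797% in colostrum and 0.879, 0.910, 0.976 and 0.83% in mature milk. Among inserts without a leader, both miRNAs were therefore near 1% in each library but 0d-3, and the mature milk libraries lay within the colostrum range. With leaders cut off before matching and their inserts counted, miR-25-3p was 0.564, 0.585, 3.93 and 0.484% of inserts in 0d-1, 0d-2, 0d-3 and 3 days. It was then 0.731, 0.521, 0.801 and 0.582% at 7, 14, 21 and 28 days, with 7 and 21 days above each colostrum library but 0d-3.

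The balance inside the seed group needs no scaling between libraries. miR-25-3p took 48.6% of the seed counts in 0d-1, 50.5% in 0d-2, 55.8% in 0d-3 and 47.5% at 3 days. Mature milk had 49.8, 49.1, 49.2 and 52.1% at 7, 14, 21 and 28 days. 0d-3 was again the highest and 3 days the lowest, with mature milk in between. Colostrum averaged 50.6% ± 3.69 and mature milk 50.1% ± 1.40 (SD over 4 libraries each), with an exact permutation p of 0.83 (adjusted 0.971). The direction turned without 0d-3, when colostrum averaged 48.9% ± 1.54 (SD over 3 libraries).

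The first relative held 46.7, 46.0, 39.1 and 49.1% of the seed counts in 0d-1, 0d-2, 0d-3 and 3 days, and 46.5, 47.4, 47.7 and 44.9% at 7, 14, 21 and 28 days. The log2 ratio of miR-25-3p to the first relative was between -0.05 and 0.22 in the 7 libraries other than 0d-3 and 0.51 in 0d-3. At 3 days the first relative was slightly the larger of the pair, with 3473 counts against 3357. Colostrum averaged 45.2% ± 4.32 of the first relative and mature milk 46.6% ± 1.27 (SD over 4 libraries each, exact permutation p = 0.771, adjusted 0.971). Colostrum without 0d-3 averaged 47.3% ± 1.63, above mature milk.

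The second relative was a minor member, and its group would also take in inserts of the first relative changed by T10C, as described below. It held 1.47, 1.35 and 1.54% of the seed counts in 0d-1, 0d-2 and 3 days, 0.340% in 0d-3, and 1.35, 1.5, 1.41 and 1.31% at 7, 14, 21 and 28 days. 0d-3 alone was low, and the ratio of the first to the second relative was 115 there against 31.6 to 34.3 in the other 7 libraries. Colostrum at 1.18% ± 0.562 and mature milk at 1.39% ± 0.0809 (SD over 4 libraries each) did not differ in the exact permutation test (p = 0.800, adjusted 0.971). Here too the direction turned without 0d-3, with 1.45% ± 0.0956 in colostrum.

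**Figure D2:**
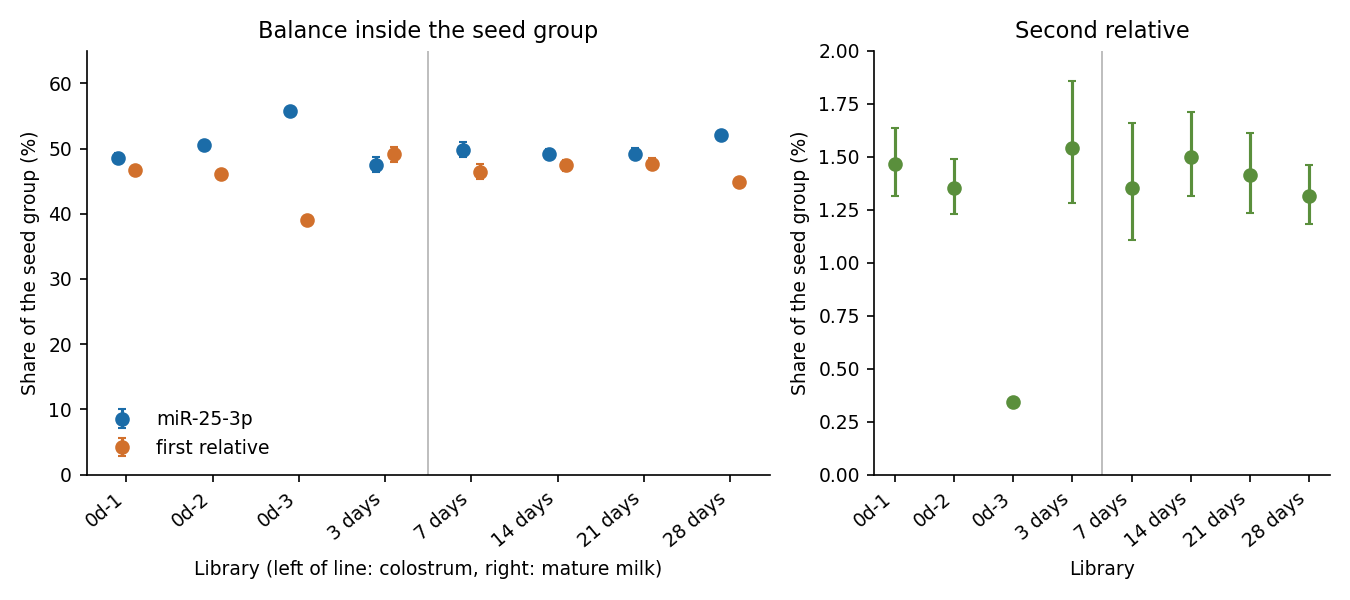
Share of the seed group (%) held by miR-25-3p and the first relative (left) and by the second relative (right, own axis from 0 to 2%) in each library, with 95% Wilson intervals for counting error, some smaller than the points. miR-25-3p and the first relative each hold near 50% in 7 libraries, and in 0d-3 they part to 55.8 and 39.1% while the second relative falls to 0.340%.

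The other 678 groups were small. 92 of them differed from miR-25-3p or a named relative by 1 base in the first 18 nt and held 1.99% ± 1.14 of the seed counts (SD, n = 8). Another 316 differed by 2 bases and held 0.0886% ± 0.0921. The remaining 270 differed by more and held 0.376% ± 0.195, and 234 of them were seen in a single library. 0d-3 supplied 43819 of the 45836 counts at 1 base, 2032 of the 2147 at 2 bases and 969 of the 1458 beyond.

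The distant relative, the miR-363 type, was the most abundant of these 270 groups. It had 19, 55, 554 and 9 counts in 0d-1, 0d-2, 0d-3 and 3 days, and 13, 18, 19 and 30 counts at 7, 14, 21 and 28 days, so that it was present in every library at a low level. The miR-32 type (tATTGCACattactaagttgca) had 9 counts in all, with 1 in 0d-1, 6 in 0d-3 and 2 at 28 days. At this depth neither allows a comparison between stages. Some distant members met the rule without being family members. The insert cATTGCACtacagaactttgt, with 25 counts over 8 libraries, matched miR-148a-3p lacking its first base with G3T, counted from the shifted start.

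3′ ends were uniform in miR-25-3p and mixed in the first relative. The exact 22-nt sequence made up 92.1, 91.5, 87.9 and 92.8% of miR-25-3p in 0d-1, 0d-2, 0d-3 and 3 days, and 92.7, 91.5, 91.6 and 91.8% at 7, 14, 21 and 28 days. The 22-nt form of the first relative made up 78.7, 78.3, 79.8 and 80.2% in colostrum and 81.3, 79.2, 79.2 and 77.6% in mature milk. The ranges of these miRNAs over the 8 libraries did not overlap. Neither share differed between colostrum and mature milk in the exact permutation test (p = 0.714 for miR-25-3p and 0.971 for the first relative, both adjusted to 0.971). For miR-25-3p the colostrum mean was 91.1% ± 2.20, below mature milk at 91.9% ± 0.549, and without 0d-3 it was 92.1% ± 0.641, above it.

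The difference lay in the longer forms, which begin with the full sequence and carry extra bases. They made up 3.26% ± 0.974 of miR-25-3p and 16.4% ± 1.82 of the first relative (SD, n = 8). The first relative had more of them in 8 of 8 libraries, by 13.1 points ± 1.2. An exact sign-flip permutation test over the libraries, chosen after seeing the data, gave p = 0.0078 (adjusted over 4 tests 0.0104). That is the smallest p it can give, and any difference with 1 sign in 8 of 8 libraries gives it. As the libraries also share animals, the p adds nothing to the count of libraries. Shorter forms had near means, with 2.03% ± 0.332 of miR-25-3p and 2.10% ± 0.704 of the first relative, but the order differed by stage. Their share was larger in miR-25-3p in each colostrum library and larger in the first relative in each mature milk library. This difference was not tested. Longer and shorter forms of miR-25-3p did not differ between colostrum and mature milk (exact permutation p = 0.371 and 0.486, both adjusted to 0.971). Without 28 days, the shorter forms reached the smallest p of that permutation test, 0.0286 (adjusted 0.257). Shorter forms of the first relative were 1.73, 1.89, 0.786 and 1.90% in 0d-1, 0d-2, 0d-3 and 3 days. At 7, 14, 21 and 28 days they were 3.01, 2.68, 2.70 and 2.11%, so that the stages did not overlap, but no test was run. This share was not among the 9 planned comparisons, and in each of those the stages overlapped. No other end class of miR-25-3p, the first relative or the second relative separated the stages.

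The end forms that made up at least 1% of these miRNAs are shown against the main sequences above, with the seed in capitals.

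miR-25-3p with A22T: cATTGCACttgtctcggtctgt
miR-25-3p with A added: cATTGCACttgtctcggtctgaa
first relative with A added: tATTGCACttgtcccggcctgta
first relative with T added: tATTGCACttgtcccggcctgtt
first relative with AT added: tATTGCACttgtcccggcctgtat
first relative with AA added: tATTGCACttgtcccggcctgtaa
first relative with T22A: tATTGCACttgtcccggcctga

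The form with A added was 2.25% ± 0.648 of miR-25-3p and 8.78% ± 0.569 of the first relative (SD, n = 8). T, AT and AA added to the first relative were 3.00% ± 0.513, 2.17% ± 0.445 and 1.11% ± 0.296. Single added bases were mostly A in both miRNAs, 76.0% ± 5.0 of them in miR-25-3p and 74.1% ± 2.80 in the first relative, with T next at 22.4% ± 5.37 and 25.2% ± 2.74. The share of A was not separated between the miRNAs, with a difference of -1.97 points ± 3.92, below 0 in 5 of 8 libraries (exact sign-flip permutation p = 0.219, adjusted 0.219). Whether an added base continues the hairpin was not analysed here.

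The 22nd nucleotide was exchanged in a small part of both miRNAs. The A22T form of miR-25-3p made up 2.21, 2.33 and 2.32% in 0d-1, 0d-2 and 3 days and 4.83% in 0d-3, and its mean without 0d-3 was 2.48% ± 0.229 (SD, n = 7). The T22A form of the first relative was 1.2% ± 0.228 (SD, n = 8) and was lowest in 0d-3, at 0.743%. The second relative was more mixed, with 56.5% ± 4.80 in its 22-nt form. Its 92 to 419 counts in the 7 libraries other than 0d-3 make these values less certain. Its form with C21G and C22T equals the first relative with T10C alone. This form made up 5.14% ± 2.85 of the group (SD, n = 8), from 0.935% at 21 days to 10% in 0d-1. Of the bases that define a group, only nucleotide 10 separates these relatives. Changed inserts of the first relative may thus be counted in the second. Their part in its share and mixed ends was not tested.

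**Figure D3:**
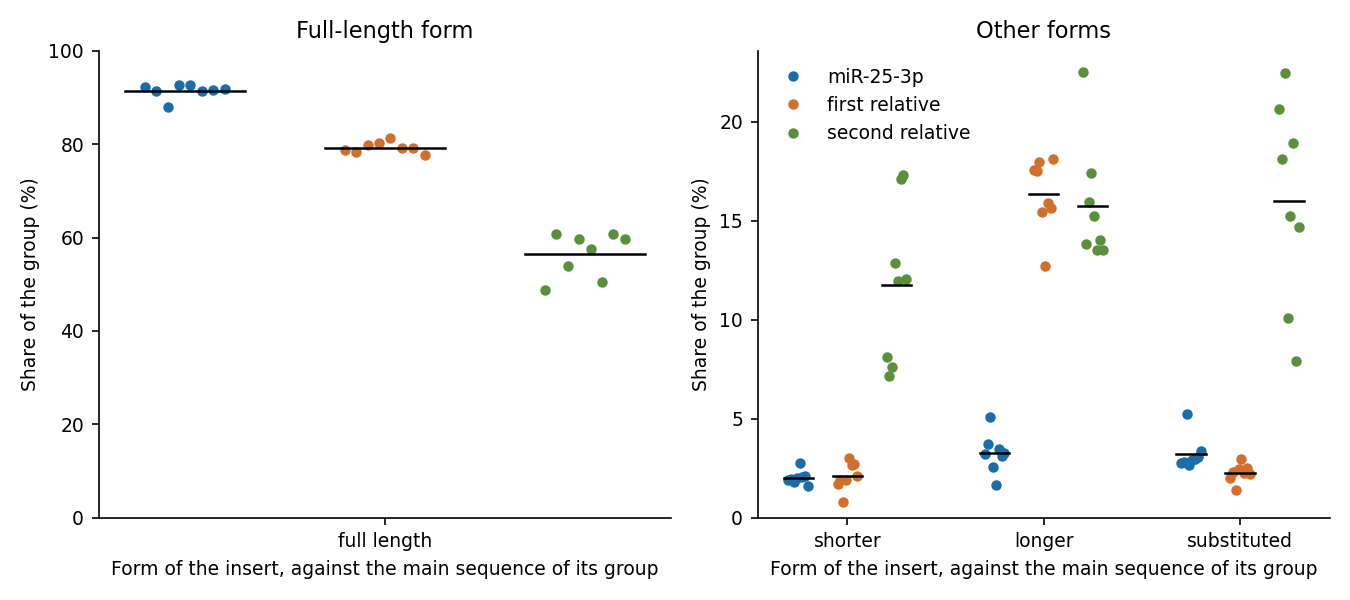
Share (%) of each group that is its 22-nt main sequence (left) and that is shorter, longer or substituted near the 3′ end (right), with 1 point per library in the order of lactation and a line at the mean of 8 libraries. Longer forms are 16.4% of the first relative and 3.26% of miR-25-3p.

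The 5′ ends, which set the seed, were nearly uniform in both miRNAs. Among inserts without a leader that started within 2 nt of the main start, 98.5% ± 0.291 of miR-25-3p and 95.4% ± 0.572 of the first relative began at it (SD, n = 8). Inserts that started 1 nt later, with a shifted seed, made up 1.14% ± 0.213 of miR-25-3p and 3.93% ± 0.381 of the first relative. The first relative had the larger share in 8 of 8 libraries, by 2.79 points ± 0.292. The exact sign-flip permutation p was again the smallest possible (0.0078, adjusted 0.0104), for a comparison added after seeing the data. Starts 1 nt earlier made up 0.371% ± 0.217 and 0.585% ± 0.414.

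The leaders also preceded seed members, which the rule does not count since their seed is displaced. These made up 20.9, 25.1 and 10.8% of all seed counts, with and without leaders, in 0d-1, 0d-2 and 3 days, and 0.00869% (85 counts) in 0d-3. At 7, 14, 21 and 28 days they made up 2.40, 20.6, 4.59 and 24.8%, and the libraries of 7 and 21 days, the lower ones, were those of 36-nt reads. Behind a leader, miR-25-3p took 32.2% (95% Wilson interval 31.0 to 33.4), 28.9% (28.0 to 29.7), 34.1% (24.9 to 44.7) and 27.2% (24.3 to 30.2) of the seed counts in 0d-1, 0d-2, 0d-3 and 3 days. It took 37.7% (30.7 to 45.3), 31.6% (30.1 to 33.1), 37.7% (34.3 to 41.3) and 32.8% (31.8 to 33.8) at 7, 14, 21 and 28 days.

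The balance thus tilted toward the first relative behind a leader in all 8 libraries. The difference in the share of miR-25-3p, with minus without a leader, was -17.6 points ± 4.01 (SD, n = 8) and lay between -21.7 and -11.5 points. The exact sign-flip permutation test, added after seeing the data, gave its smallest p (0.0078, adjusted 0.0104). Any difference with 1 sign in 8 of 8 libraries gives that p, so that it adds nothing to the count of libraries. Since 36-nt reads cannot show a leader with an insert above 23 nt, forms of 24 nt and more are missing there at 7 and 21 days. With leaders cut off before matching, miR-25-3p held 45.2, 45.1, 55.8 and 45.3% of the seed counts in colostrum and 49.5, 45.5, 48.7 and 47.3% in mature milk. The first relative then held 48.9, 50.1, 39.1 and 50.7% in colostrum and 46.4, 49.9, 47.7 and 48.1% in mature milk. It was thus the larger of the pair in 5 of 8 libraries, namely 0d-1, 0d-2, 3 days, 14 days and 28 days.

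**Figure D4:**
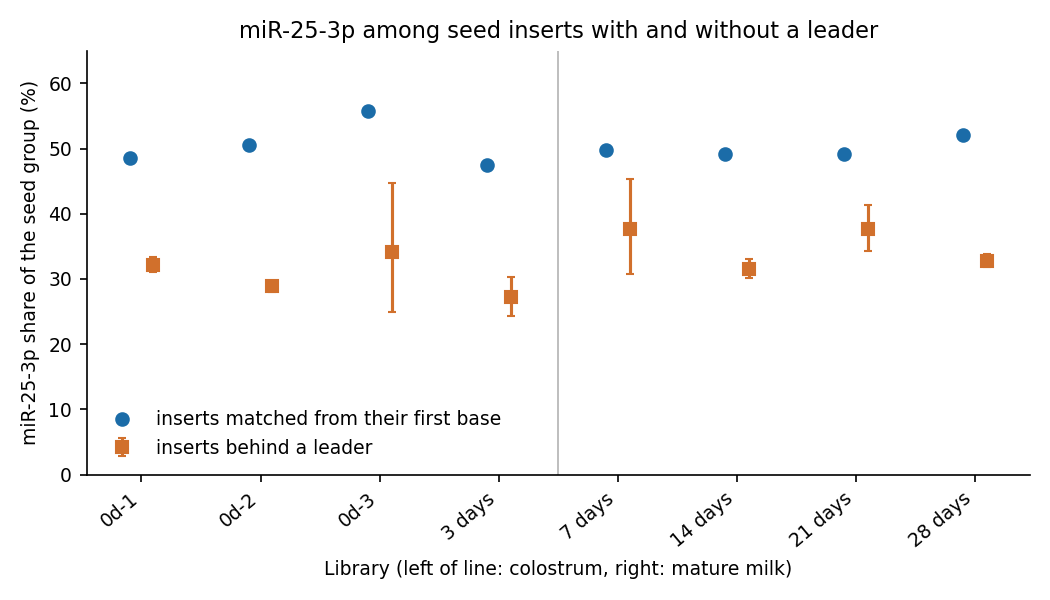
Share of the seed group (%) held by miR-25-3p in each library among inserts matched from their first base (circles) and among inserts behind a leader (squares, 95% Wilson intervals for counting error). The share behind a leader is the lower in 8 of 8 libraries, with differences from -21.7 to -11.5 points.

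Single-base variants in the first 18 nt of miR-25-3p were few outside 0d-3. With the seed intact and the named relatives left out, they amounted to 0.804 to 2.56% of the miR-25-3p counts in 7 libraries and to 5.38% in 0d-3. Much of the excess was at nucleotide 18. T18G had 15859 counts in 0d-3 and 0 to 10 counts in each other library, and T18C had 4842 counts in 0d-3.

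As a share of all inserts with the first 17 nt of miR-25-3p, those with another base at nucleotide 18 were 3.67% in 0d-3 and at most 0.227% elsewhere. In the first relative, which has the same bases at nucleotides 15 to 17, the share was 0.202% in 0d-3, inside the range of the other libraries. G alone, however, was highest in 0d-3 there too, with 491 counts of C18G against 5 in 0d-1 and 0 in the other 6 libraries. Other positions of the first relative showed this as well. T12G had 964 counts in 0d-3 and 0 to 4 elsewhere, and G16C had 804 and 0 to 2. Against the counts of the first relative in 0d-3 these were 0.252 and 0.210%, above C18G at 0.128%. Not every change was highest in 0d-3, as T10A was highest in 0d-1 (0.422%).

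Changes at nucleotide 18 were not limited to miR-25-3p. Of the other 12 miRNAs of the primer table, 6 had their highest share of another base in 0d-3, led by miR-375-3p at 0.797% against at most 0.226% elsewhere and miR-30a-5p at 0.389% against at most 0.122%. miR-200c-3p, miR-30d-5p, miR-182-5p and miR-191-5p were the others. G alone was highest in 0d-3 for 6 of the 8 of these miRNAs whose main base is not G. For miR-148a-3p this was 0.0318% of few inserts, as 0d-3 held only 3148 of its counts. For miR-375-3p (0.736%) and miR-27b-3p (0.239%), G was at 0 in most other libraries, which held far fewer inserts than 0d-3. Whether this order follows from depth was not tested. miR-27b-3p was at 0.436% for any other base in 0d-3 but reached 3.31% at 28 days. The source of the T18G form was not tested.

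**Figure D5:**
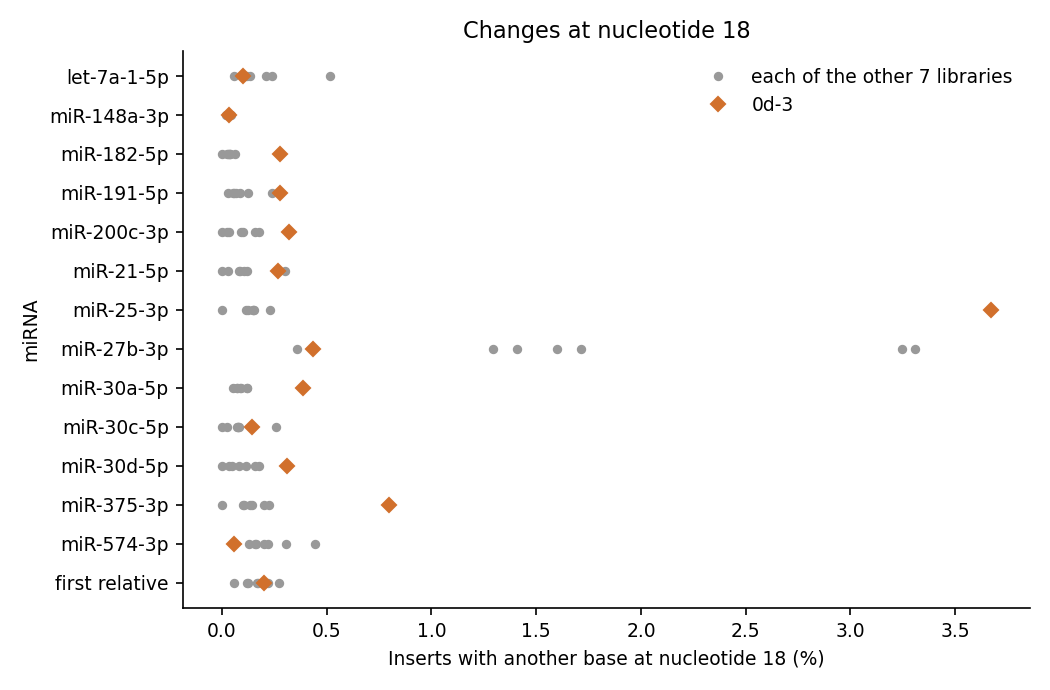
Inserts with a base other than the main one at nucleotide 18 (%), among those with the first 17 nt of each miRNA, for the 13 miRNAs of the primer table and the first relative. Diamonds are 0d-3 and circles the other 7 libraries, and miR-25-3p in 0d-3 lies at 3.67% against at most 0.227% elsewhere.

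Across all 18-nt units, 15212 passed the filter on low counts and 0% of them were called between colostrum and mature milk by edgeR's quasi-likelihood test (adjusted p under 0.05). Of these, 260 had an unadjusted p under 0.05, and DESeq2 called 36 of 7744 units (0.465%), each lower in colostrum. Without 0d-3, edgeR again called 0 units, but 3549 of 15492 had an unadjusted p under 0.05 (lowest adjusted p 0.132). On simulated data at the dispersion estimated with 0d-3, the code recovered 0 of 200 units changed by a log2 fold change of 4. The 0% called therefore does not show that the stages are alike. 7 of the 681 seed groups passed the filter. edgeR called 0 of them, and DESeq2 gave an adjusted p for 2 of the 7 and called neither. The log2 fold change of colostrum to mature milk was 3.19 (SE 2.0) for miR-25-3p, 2.81 (SE 1.96) for the first relative and 1.37 (SE 1.72) for the second relative, each with an edgeR adjusted p of 0.975. These values rested on 0d-3, and without it they were 0.03, 0.09 and 0.13. DESeq2 gave no p for miR-25-3p and the first relative.

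Of the other 12 miRNAs of the primer table, miR-191-5p, miR-574-3p and miR-200c-3p had the highest Pearson correlation with the levels of miR-25-3p over the 8 libraries. On log2 shares of inserts without a leader, Pearson's r was 0.997 for miR-191-5p, 0.99 for miR-574-3p and 0.98 for miR-200c-3p, and 0.99 for the first relative. Without 0d-3, r was 0.95, 0.99, 0.72 and 0.89 over 7 libraries, and miR-200c-3p was then below miR-30d-5p (0.86), miR-30a-5p (0.85), miR-182-5p (0.80), let-7a-1-5p (0.77) and miR-30c-5p (0.73). By Spearman's rho over 8 libraries, miR-191-5p and miR-30a-5p were both at 0.98 and miR-30d-5p at 0.95, above miR-574-3p (0.93) and miR-200c-3p (0.90). The libraries share their total within each point, so that these values are a description. miR-148a-3p had an r of -0.97 over 8 libraries and 0.26 without 0d-3, the library that nearly lacked it.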

How the data were processed

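Exosomal small RNA of 10 to 40 nt was sequenced, per the labels, on an Illumina Genome Analyzer II. The authors merged identical reads and deposited the counts of each distinct read per library, without normalization. The adaptor was still on the reads, so that the authors' length filter had not been applied to them. Some groups held 1 count in total, so that their count filter had not been applied either. Depth is given by reads and inserts per library.

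Here the adaptor, read from the files as the sequence after the primer-table miRNAs, was removed where its leading 8 nt first matched exactly. Inserts of 18 to 26 nt in which every base was read were kept and grouped by their first 18 nt. The 13 miRNAs of the primer table were matched in the same way. Leaders were the 4 most frequent 5-nt inserts. Groups were named at a mean of at least 0.5% of the seed counts, end variants at 1%, and the 3 most similar miRNAs by correlation. The members and lists were chosen with earlier results of these data known.

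9 shares were compared with two-sided exact permutation tests, and 4 paired comparisons, added after seeing the data, with exact sign flips over the 256 patterns of 8 libraries. 18-nt units were tested with edgeR 4.0.16 (filterByExpr, TMM, quasi-likelihood, Benjamini-Hochberg) and DESeq2 1.42.0 in R 4.3.3. Stages stood as replicates of their milk class, so that p-values measure the spread between these libraries. A test of the edgeR code on simulated data used 15212 units of this comparison, with 200 changed by a log2 fold change of 4. The code recovered 199 with 10 false calls at a dispersion of 0.1, and 0 at the estimated dispersion of 1.43. Wilson intervals are at 95% and cover only counting error, as PCR copies of a molecule could not be told apart. Python 3.11.15, numpy 2.4.6 and scipy 1.17.1 were used. No genome sequence or miRNA sequence catalogue was used. Neighbours of the family's genes (miRNA genes within 2 kb) came from the RefSeq annotation of Sscrofa11.1, and the levels of the cluster members were not analysed here.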

Additional observations from a re-analysis of the deposited data

Results flagged for a closer look

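Of 42 groups of 4 libraries checked, 6 held a library that stood far from the other members, and all 6 were 0d-3 within colostrum. Chance alone gives about 5% of groups. The seed share was 7.04% of inserts in 0d-3 against 0.429 to 0.706% in the other colostrum libraries, and 7.05% against 1.62 to 2.27% among inserts without a leader. miR-25-3p was 3.93% of inserts against 0.204 to 0.357%, and 17.7% of the counts of the 13 primer-table miRNAs against 3.17 to 3.89%. miR-148a-3p made up 0.102% of these counts in 0d-3 and 62.0 to 74.4% in the other 7 libraries. With miR-148a-3p left out of the total, an alternative chosen after seeing the data, miR-25-3p was 17.8% in 0d-3 and 10.4 to 12.9% in the other 7 libraries. The second relative was 0.340% of the seed counts against 1.35 to 1.54%. The A22T form of miR-25-3p was 4.83% against 2.21 to 2.33%. The library also differed in leaders (0.105% of inserts), in miR-148a-3p (0.0227% of inserts without a leader, against 14.4 to 21.2% elsewhere) and in the share of reads that held an insert of 18 to 26 nt (76.2%, against 3.35 to 18.2% elsewhere), and whether these moved the flagged values was not tested.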

How the results depend on the processing

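The 9 comparisons of colostrum with mature milk were recomputed under 23 alternatives for both shares of inserts and 18 for each other share, which gave 172 values. None passed the threshold, but a single comparison cannot fall below an adjusted p of 0.257 in this design, the lowest value seen, and the settings with 15 or 10 assignments cannot go below an unadjusted p of 0.0667 or 0.1, so that this says nothing about stability. The direction turned in 23 values, for which the cause was not tested. With each library left out in turn, the difference in points ranged from -0.233 to 1.97 for the seed share, from -0.122 to 1.12 for the miR-25-3p share of inserts, from -1.21 to 1.56 for its share of the seed group, from -2.68 to 0.679 for the first relative, from -0.342 to 0.0589 for the second relative, from -1.40 to 0.235 for full-length miR-25-3p, from -0.395 to -0.0146 for its shorter forms, from 0.278 to 1.12 for its longer forms, and from -0.627 to 0.602 for the full-length first relative. The turned values of the first 6 of these came without 0d-3, and those of the full-length first relative came without 0d-1, 0d-2 and 7 days in turn.

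With 40-nt reads only, the difference turned for the miR-25-3p share of the seed group (-0.0314), its shorter forms (0.0815) and the full-length first relative (0.869). With 0d-3 also left out, an alternative chosen after seeing the data, the differences were -0.0590 for the seed share, -0.0400 for the miR-25-3p share of inserts, -1.77 for its share of the seed group, 1.15 for the first relative, 0.0470 for the second, 0.510, 0.118 and -0.206 for full-length, shorter and longer miR-25-3p, and 0.671 for the full-length first relative. The latter also turned with the adaptor matched by 6 nt (0.0784) or by 10 nt with 1 mismatch (0.159).

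The 4 paired comparisons kept their direction and side of the threshold under 13 alternatives each (52 values). For longer forms, starts 1 nt later and the share behind a leader, all 8 libraries lay on 1 side. Leaving libraries out then fixed the sign-flip p in advance. It was 0.0156 (adjusted 0.0208) with 1 library left out and 0.03125 (adjusted 0.0417) with 40-nt reads only. For these comparisons, such settings say nothing about the stability of the p-value. Left-one-out differences were 12.9 to 13.4 points for longer forms, 2.73 to 2.86 for starts 1 nt later, -2.57 to -1.12 for added A, and -18.4 to -17.0 behind a leader. edgeR called 0 units under each alternative and DESeq2 called 36. The log2 fold change of miR-25-3p ranged from 0.03 to 3.69 over 22 alternatives. No paired analysis was possible because the groups share no numbers that pair the libraries of colostrum and mature milk. Splitting added bases by the hairpin and the cluster lists were not run. Low counts limit the rarer end forms, with 3357 counts of miR-25-3p at 3 days and 92 of the second relative at 7 days.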

Other observations

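The counts of the 10 largest seed groups were compared between libraries by chi-square to look for repeated deposits of a library. The unadjusted p was under 0.05 in 25 of 28 pairs, among them each pair of 0 day replicates. The test takes reads as independent molecules, so that a low p does not show a difference beyond counting and PCR error. 0d-2 and 7 days were closest, with a chi-square of 7.39 on 9 degrees of freedom. By insert length, 94.6% ± 0.818 of miR-25-3p was 22 nt and 3.03% ± 0.899 was 23 nt (SD, n = 8). In the first relative 81.0% ± 1.39 was 22 nt, 12.2% ± 0.951 was 23 nt and 4.25% ± 0.853 was 24 nt. At nucleotide 1, where miR-25-3p has C and the first relative T, 0.318% ± 0.157 of the miR-25-3p inserts carried T and 0.703% ± 0.240 of those of the first relative carried C.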
